A study of Homo sapiens with 4 samples.

Results

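The interferon and double-stranded RNA response was followed through 48 genes: RNA sensors, double-stranded RNA binding proteins, interferon receptor chains with their kinases, transcription factors, and genes that interferon induces. Members were found by gene symbol in the platform annotation, and a gene was read from its brightest probe set by mean log2 signal over the 4 arrays. Of the 48 genes, 47 had a probe set that names that gene alone, out of 19775 such genes on the array, and the signal of STAT2 was not analysed here. A total of 35 members, of 11938 genes in all, had signals over 24.8, the median of the table, on 2 or more arrays and were tested.

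The cells were Z138, an established human mantle cell lymphoma line, in which the transcription factor SOX11 was reduced by short hairpin RNAs and the transcriptome was read on Affymetrix U133 Plus 2.0 arrays. Both shControl arrays came from cells with a scrambled hairpin, shControl.1 or shControl.2, and both shSOX11 arrays from cells with a hairpin against SOX11, shSOX11.1 or shSOX11.3. Each hairpin had 1 array, all 4 populations carried a stably integrated lentiviral vector, and the series' text calls them stably transduced clones. Z138 cells without a vector were not analysed here. The arrays of a group carry different hairpins, so the spread within a group holds differences between hairpins and between arrays. With no repeat of a hairpin these cannot be told apart, and p-values cover no more than the spread of these 4 samples.

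Cells recognise double-stranded RNA in the cytoplasm with the helicases RIG-I and MDA5, which signal through MAVS to the factors IRF3 and IRF7 and so to transcription of interferon genes. Secreted type I interferon binds the IFNAR1 and IFNAR2 chains, which activate the kinases TYK2 and JAK1 and a complex that includes STAT2 and IRF9. That complex binds the interferon-stimulated response element in the promoters of induced genes, among them genes for the sensors themselves. Short hairpin RNAs are themselves partly double-stranded, and the scrambled hairpins were also set against each other.

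SOX11 itself was lower on both arrays with a hairpin against it: it read 797 and 787 on shControl.1 and shControl.2, and 335 and 339 on shSOX11.1 and shSOX11.3. Paired values are given in this order of arrays throughout, controls first. The groups did not overlap, and the difference was -1.23 on the log2 scale, 2.35-fold lower (limma SE 0.15, adjusted p = 0.131). No gene of the 11938 passed limma's adjusted p of 0.05, and 1001 had an unadjusted p below 0.05, while 953 (7.98%) passed the adjusted p without shSOX11.1 and 211 (1.77%) without shSOX11.3. The median of all differences was -0.06 log2, so the typical gene lay slightly lower on the shSOX11 arrays. The ratio of 3′ to 5′ probe sets of beta-actin, a measure of RNA integrity and labelling, was 11.6 on both shControl arrays but 7.29 with shSOX11.1 and 5.31 with shSOX11.3. It separates the groups as the hairpins do, and its part in every difference between them was not tested. The same ratio for GAPDH ranged from 0.978 to 1.06.

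All 6 measured B-cell and mantle cell lymphoma markers passed the filter, with summed signals of 21948 and 21881 on the control arrays against 18370 and 18702 with shSOX11 hairpins. The sum includes SOX11, the target, and is mostly MS4A1 and CCND1. Except for CD79A, each marker had both shSOX11 arrays below both controls, as did 24.9% of all genes. CD79B differed by -0.68 log2 and PAX5 by -0.86 (limma adjusted p = 0.377 and 0.532). Of plasmacytoid dendritic cell markers, which mark the blood cell that makes the most interferon, 1 of 6 passed, TCF4, which B cells also express. That list's summed signal ran from 1830 to 2240, and CLEC4C, GZMB and NRP1 were below threshold on every array. Of T and NK cell markers 3 of 11 passed, with summed signals of 291 to 336, and CD8A, CD7, GNLY and KLRD1 stayed below on every array. Of myeloid markers 3 of 8 passed, with sums of 109 to 143, and CD14, LYZ and S100A8 were below throughout. CSF3R read 8.51 and 7.67 with control hairpins against 30.6 and 30.3, and CSF1R 15.1 and 8.98 against 25.7 and 28.9. Both passed the filter through the shSOX11 arrays alone, so they had to differ, and as bounds they were at least 1.23-fold and 1.10-fold higher there. ITGAM, the third that passed, overlapped between groups, and the list's sums did too. Of epithelial and stromal markers 4 of 9 passed, KRT8, KRT18, VIM, which lymphoid cells also express, and COL1A1, a stromal collagen gene, with sums of 7353 to 8530, and EPCAM, KRT19, COL3A1 and PDGFRB were below on every array. COL1A1 read 881 to 1063 and CD3G, a T-cell receptor chain, 129 to 207, with overlapping groups in both. The part of the B-cell and myeloid markers in the differences that follow was not tested.

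Promoter sequences show which members carry the letters that the interferon-activated complex reads. The core of the interferon-stimulated response element, GAAANNGAAA on either strand, was searched in RefSeq promoter windows of 300 bases (250 before and 50 after the start, GRCh38.p14), and 37 of the 48 members had an entry. The letters occurred in 23 of those 37 members (62.2%), against 1195 of 27305 genes with an entry (4.38%). With a C after them, GAAANNGAAAC, a longer form that overlaps the first, they occurred in 18 members (48.6%) against 0.952% of genes. The list includes genes chosen because interferon induces them, so these shares describe that choice and are no result of these arrays. The stretches below belong to members that the results turn on: IFIH1, BST2 and IFIT5, which were higher on both shSOX11 arrays, PARP9, which was lower on both, ISG15 and MX1, whose groups overlapped, and IFIT1, RSAD2 and IFI44, which stayed dim. Capitals mark the matched letters, in either orientation, and each stretch reads 5′ to 3′ along the gene's own strand.
IFIH1, chr2:162318813-162318858, minus strand: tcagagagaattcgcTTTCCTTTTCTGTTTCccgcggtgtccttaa
IFIH1, chr2:162318685-162318720, minus strand: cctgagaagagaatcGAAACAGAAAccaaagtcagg
BST2, chr19:17405730-17405775, minus strand: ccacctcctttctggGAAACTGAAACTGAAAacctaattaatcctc
IFIT5, chr10:89414508-89414567, plus strand: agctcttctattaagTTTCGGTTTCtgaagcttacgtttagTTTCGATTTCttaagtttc
PARP9, chr3:122564317-122564356, minus strand: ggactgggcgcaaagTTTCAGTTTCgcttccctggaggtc
ISG15, chr1:1013369-1013414, plus strand: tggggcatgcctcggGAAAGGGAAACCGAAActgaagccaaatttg
MX1, chr21:41431839-41431878, plus strand: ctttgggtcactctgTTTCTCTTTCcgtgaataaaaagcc
IFIT1, chr10:89392492-89392544, plus strand: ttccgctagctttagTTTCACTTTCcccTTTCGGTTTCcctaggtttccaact
RSAD2, chr2:6877617-6877656, plus strand: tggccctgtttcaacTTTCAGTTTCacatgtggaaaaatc
IFI44, chr1:78649756-78649795, plus strand: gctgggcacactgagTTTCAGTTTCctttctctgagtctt
The match was found among members of each kind. Among tested members with a promoter entry, 3 of 5 that were higher on both shSOX11 arrays held the letters, as did 1 of 2 that were lower on both and 10 of 19 that overlapped. IFNAR1 and SAMD9L, higher on both shSOX11 arrays, had no match in the window. Of the members that stayed below the filter, 9 of 10 with an entry held them, all except HERC6. STAT2, which has an entry but whose signal was not analysed, had no match. A match is a run of letters and not a measured binding site.

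With both groups compared over the 35 tested members, 0 passed limma's adjusted p of 0.05, beside 0.0% of all genes. Unadjusted p was below 0.05 for 5 members (14.3%), against 8.38% of all genes, and all 5 were higher on the shSOX11 arrays: IFIH1, IFNAR1, IFNAR2, SAMD9L and BST2. In that direction the background was 3.4% of genes, and in the lower one, with 0 members, 4.98%. Leaving out shSOX11.1 raised the 5 to 10 members (28.6%, against 24.9% of genes in that fit), and leaving out shControl.1 lowered it to 2 (5.71%, against 2.84%). Without shSOX11.1, 3 members passed the adjusted p in limma, IFNAR2, IFITM1 and SAMD9L, a share of 8.57% against 7.98% of genes and so near the background. The group mean was higher in shSOX11 for 20 members (57.1%, against 41.9% of genes) and lower for 15 (42.9%, against 58.1%), and the members' median difference was 0.04 log2. With arrays centred on their medians, 25 members and 52.7% of genes were higher. Both shSOX11 arrays lay above both shControl arrays for 6 members (17.1%, against 16.2%) and below both for 4 (11.4%, against 24.9%), 28.6% in all against 41.0%. IFI35, one of those 4, was below threshold in shSOX11 and has only a bound. The share above was therefore near that of all genes, and the share below was smaller; no test of either difference was made. With 2 arrays against 2, an exact permutation test of a single gene cannot fall below p = 0.333.

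**Figure D1:**
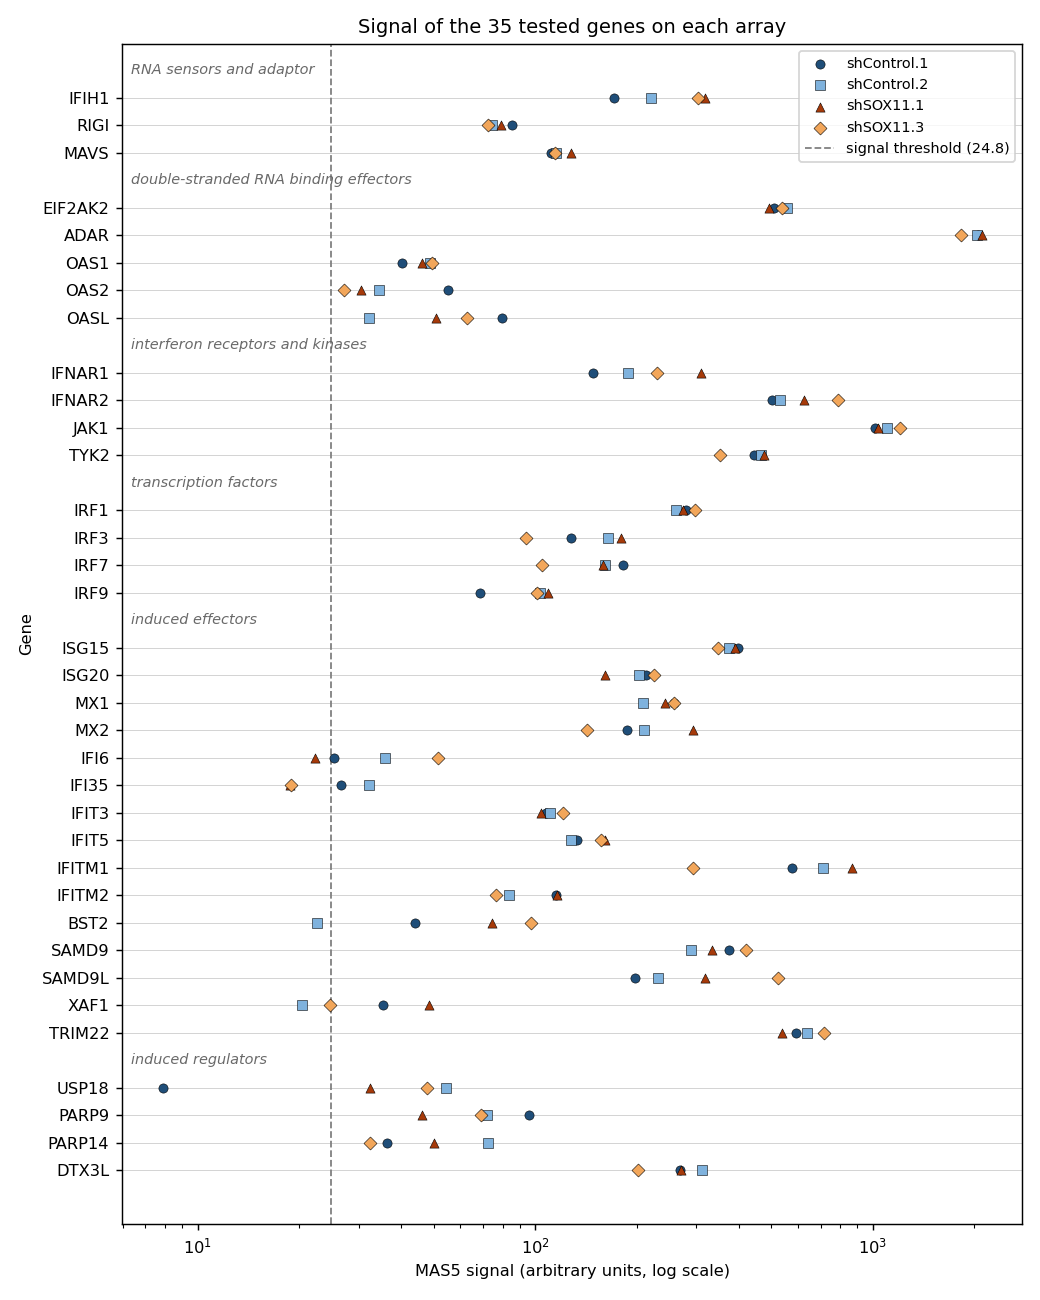
Deposited signal of the 35 tested members on each of the 4 arrays, on a log axis, with genes grouped by role and the threshold of 24.8 dashed. BST2 has its lower shSOX11 point, at 74.3, well above its higher control point, at 43.9, while IFITM1, MX2 and USP18 have points of one group spread around the other.

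Of the RNA sensors and their adaptor, 3 of 5 were tested, and in the brightest probe sets IFIH1 alone had groups that did not overlap. IFIH1, which encodes MDA5, the sensor of long double-stranded RNA, gave signals of 171 and 220.2 on shControl.1 and shControl.2, and 318 and 304 on shSOX11.1 and shSOX11.3. Both shSOX11 arrays lay above both controls, and the shSOX11 pair lay closer together than the control pair. The log2 means were 7.60 ± 0.26 for shControl and 8.28 ± 0.05 for shSOX11 (SD, n = 2 each). The difference of 0.68 log2, 1.60-fold, had a limma SE of 0.19, an unadjusted p of 0.00711 and an adjusted p of 0.415. A second IFIH1 probe set differed by -0.06, reading 27.6 and 40.1 against 35.2 and 29.0, and the third was below threshold on both control arrays and passed through the shSOX11 arrays alone, at least 1.28-fold higher as a bound.

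RIGI, which encodes RIG-I, the sensor of short RNAs with a 5′ triphosphate, gave 85.2 and 74.2 with control hairpins and 79.1 and 72.4 with shSOX11 hairpins, with overlapping groups (difference -0.07, limma adjusted p = 0.946). That probe set is of the kind that can bind related transcripts. The next RIGI probe set read 23.1 and 25.9 against 45.4 and 33.1, a difference of 0.66 log2 in the opposite direction. MAVS, the mitochondrial adaptor through which both helicases signal, gave 111 and 115 with control hairpins and 128 and 115 with shSOX11 hairpins (difference 0.10, adjusted p = 0.904). DHX58, the third helicase of the family, and TLR3, the endosomal sensor of double-stranded RNA, stayed below threshold on every array, with signals of 1.72 to 2.78 and of 5.79 to 16.6.

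None of the double-stranded RNA binding effectors tested, 5 of 6, had an unadjusted p below 0.05 in limma, and their adjusted p ran from 0.702 to 0.938. EIF2AK2, which encodes the kinase PKR that halts translation when it binds double-stranded RNA, gave 509 and 555 with control hairpins and 494 and 537 with shSOX11 hairpins. ADAR, the editing enzyme that marks self RNA, gave 2049.8 and 2035 against 2098 and 1829.7. Both genes overlapped between groups, with differences of -0.05 and -0.06 log2, close to the all-gene median. Each turned to slightly above 0 when the arrays were centred on their medians.

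The OAS genes encode enzymes that make 2′-5′ oligoadenylates, the activators of RNase L. OAS1 gave 40.2 and 48.8 with control hairpins and 46.3 and 49.6 with shSOX11 hairpins. A dimmer OAS1 probe set read 27.6 and 17.8 against 34.2 and 34.6, a difference of 0.63 log2. There both shSOX11 arrays lay above both controls, and shControl.2 was below threshold. OAS2 gave 55.3 and 34.4 against 30.4 and 27.1, with both shSOX11 arrays below both controls (difference -0.60, limma SE 0.45, adjusted p = 0.702). The control arrays differed by more than the groups did, by 0.69 log2, so the OAS2 difference does not exceed the spread between control hairpins. OASL, a relative without that enzyme activity, gave 79.5 and 32.1 on the control arrays, with the shSOX11 arrays at 50.9 and 62.9 between them. OAS3 read 38.9 on shControl.1 and 5.39 to 7.43 on the other arrays, and was not tested. OAS2, OAS3 and OASL thus had their highest value on shControl.1.

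All 4 interferon receptor chains and kinases on the list were tested. Both chains of the type I interferon receptor were higher on both shSOX11 arrays. IFNAR1, the signalling chain that carries TYK2, gave 148 and 189 with control hairpins and 309 and 229.7 with shSOX11 hairpins. The log2 means were 7.39 ± 0.25 and 8.06 ± 0.30 (SD, n = 2 each), and the difference of 0.67, 1.59-fold, had a limma SE of 0.22, an unadjusted p of 0.0153 and an adjusted p of 0.495. Of its 4 probe sets, 3 had both shSOX11 arrays above both controls. The second in brightness read 147 and 111 against 244 and 262, a difference of 0.98 log2, while the dimmest read 54.7 and 44.3 against 64.1 and 29.6.

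IFNAR2, the chain with the higher affinity for interferon and the partner of JAK1, gave 503 and 532 with control hairpins and 624 and 790.0 with shSOX11 hairpins. The groups did not overlap, and shSOX11.3 was the highest. The log2 means were 9.01 ± 0.06 and 9.46 ± 0.24 (SD, n = 2 each), a difference of 0.44, 1.36-fold (limma SE 0.17, unadjusted p 0.0319, adjusted p = 0.547). All 3 IFNAR2 probe sets had both shSOX11 arrays above both controls, with differences of 0.28 to 0.54 log2. Without shSOX11.1 the adjusted p of IFNAR2 in limma was 0.0317, where the lone shSOX11 array takes its error from the controls. In bulk RNA, a change in the share of cells that express a gene and a change in its RNA per cell cannot be told apart.

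The receptor kinases overlapped between groups in their brightest probe sets. JAK1 gave 1013 and 1102 with control hairpins and 1035 and 1206 with shSOX11 hairpins (difference 0.08, limma adjusted p = 0.889). A dimmer JAK1 probe set read 85.2 and 58.4 against 86.7 and 177, a difference of 0.81 log2 that shSOX11.3 supplied. TYK2 gave 444 and 465 against 477 and 352, a difference of -0.15 with the 2 shSOX11 arrays on either side of the controls.

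Among the transcription factors, none of the 4 tested had an unadjusted p below 0.05. IRF7, the factor that amplifies type I interferon genes, was the one member of this role whose groups did not overlap. It gave 182 and 161 on the control arrays, 159 with shSOX11.1 and 105 with shSOX11.3. The log2 means were 7.42 ± 0.13 and 7.01 ± 0.43 (SD, n = 2 each), so the difference of -0.41 (limma SE 0.25, adjusted p = 0.654) came mainly from shSOX11.3. The array of shSOX11.1 lay just under that of shControl.2. IRF3, its relative that is present before stimulation, gave 128 and 164 with control hairpins, and 179.5 and 94.1 with shSOX11 hairpins, so the highest and the lowest value both came from hairpins against SOX11. IRF1, which interferon gamma induces, gave 279 and 261 against 275 and 297. IRF9, the DNA-binding part of the interferon-activated complex, gave 68.4 on shControl.1 and 101 to 109 on the other arrays, with shControl.2 between the shSOX11 arrays (difference 0.32, adjusted p = 0.731).

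**Figure D2:**
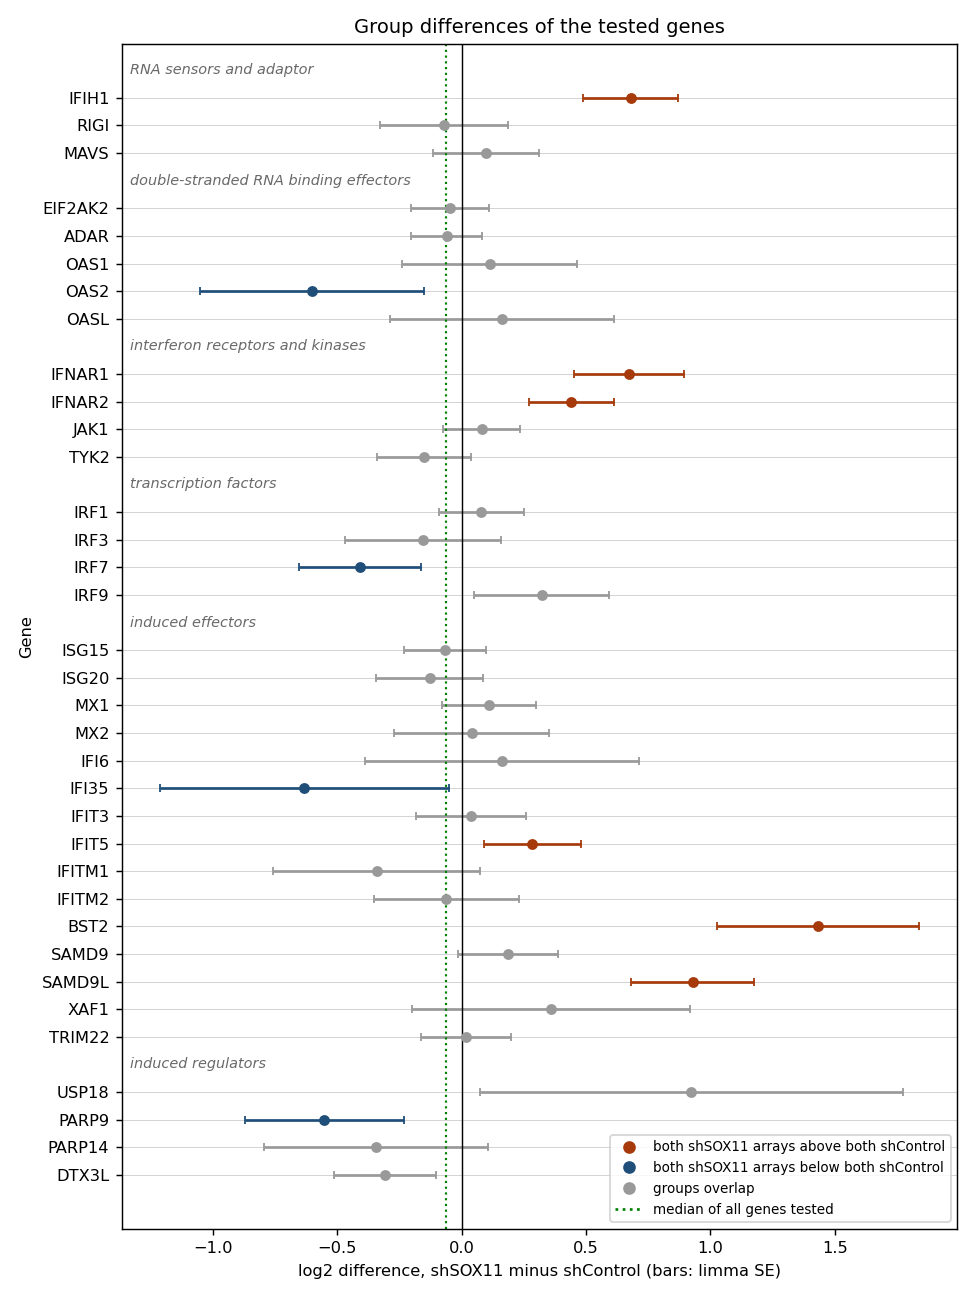
Difference between the groups, shSOX11 minus shControl on the log2 scale, for each of the 35 tested members with its limma standard error, coloured by whether the groups of 2 arrays overlapped. The dotted line is the median of all genes at -0.06; BST2 lies farthest above it at 1.43, and IFI35 is drawn at its measured difference although it has only a bound.

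Of the induced effectors, 15 of 24 were tested. SAMD9L and BST2 had an unadjusted p below 0.05, and IFIT5 also had both shSOX11 arrays above both controls. SAMD9L, an interferon-induced restriction factor whose loss or mutation is known in blood cell disease, gave 197 and 232 on the control arrays, 317 with shSOX11.1 and 522 with shSOX11.3. Both shSOX11 arrays were above both controls and differed between themselves by 0.72 log2, 1.64-fold. The log2 means were 7.74 ± 0.17 and 8.67 ± 0.51 (SD, n = 2 each), and the difference of 0.93, 1.90-fold, had a limma SE of 0.25, an unadjusted p of 0.00507 and an adjusted p of 0.394, the lowest of the members. Its other probe sets, at 0.75 and 1.13 log2, also had both shSOX11 arrays above both controls. Without shSOX11.1 its adjusted p in limma was 0.00695. SAMD9, its neighbour and paralog, gave 374 and 289 with control hairpins and 334 and 419.8 with shSOX11 hairpins, with overlapping groups (difference 0.19, adjusted p = 0.790). A dimmer SAMD9 probe set read 48.5 and 71.8 against 82.3 and 88.3, with no overlap.

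BST2, which encodes tetherin, a membrane protein that holds budding virus at the cell surface, gave 43.9 and 22.5 with control hairpins, and 74.3 and 97.1 with shSOX11 hairpins. It was the member with the largest group difference, 1.43 log2 or 2.70-fold (limma SE 0.41, unadjusted p 0.00724, adjusted p = 0.416). It was also the one member with 1.5-fold or more between each shSOX11 array and each control array (2.86% of members, against 2.69% of genes, 0.762% in that direction); none was that far lower, against 1.93% of genes. Without 1 array fewer pairs are compared, so any gene meets the limit more easily. More members met it whichever array was left out, and the share of all genes there was not counted. The control hairpins differed by 0.96 log2 in this gene, shControl.2 lay below the threshold of 24.8, and one probe set reads it. With 32 added to each signal before the log, the difference was 0.86. IFIT5, a relative of the RNA-binding IFIT proteins, gave 133 and 128 with control hairpins and 161 and 157 with shSOX11 hairpins, a tight separation of 0.28 log2 or 1.22-fold (SDs of 0.04 and 0.02 log2, n = 2 each, limma adjusted p = 0.678). Its second probe set read 40.5 and 38.3 against 66.5 and 47.4.

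Other well-known induced effectors overlapped between the groups. ISG15, the ubiquitin-like modifier, gave 398 and 375 with control hairpins and 391 and 348 with shSOX11 hairpins. MX1, a dynamin-like antiviral GTPase, gave 258 and 208 against 243 and 257. IFIT3, another IFIT family protein, gave 108 and 110.5 against 104 and 121. Their 3 differences lay between -0.07 and 0.11 log2. TRIM22, an antiviral ubiquitin ligase, gave 593 and 637 against 539 and 719, and ISG20, an exonuclease, gave 212 and 202 against 160.4 and 224. In both of these the control arrays lay between the shSOX11 arrays.

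IFI35 gave 26.6 and 32.1 with control hairpins and 18.8 and 18.9 with shSOX11 hairpins, where it was below threshold. As a bound, it was at least 1.18-fold lower, from the control mean over the threshold (limma adjusted p = 0.753). It was the one member that passed the filter through a single group, and a member that passes in this way had to differ. XAF1, an interferon-induced antagonist of apoptosis inhibitors, gave 35.4 and 20.4 with control hairpins and 48.3 and 24.6 with shSOX11 hairpins, with at least 1 array of each group below threshold.

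Several members differed more between the hairpins against SOX11 than between the groups. IFITM1, which blocks virus entry at the cell membrane, gave 576 and 709 on the control arrays, 867 with shSOX11.1 and 294 with shSOX11.3, the highest and the lowest value of the gene. The group difference of -0.34 log2 therefore describes neither hairpin (limma adjusted p = 0.818). Without shSOX11.1 it was -1.12 with an adjusted p of 0.00926, and without shSOX11.3 it was 0.44. IFITM2 gave 116 and 83.4 against 116 and 76.6, and since IFITM genes are near-identical copies, their probe sets may share transcripts. MX2, the nuclear pore-associated relative of MX1, gave 187 and 210.3 on the control arrays, 293 with shSOX11.1 and 142 with shSOX11.3. IFI6 went the other way, with 25.4 and 36.0 on the control arrays, 22.3 with shSOX11.1 and 51.4 with shSOX11.3.

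**Figure D3:**
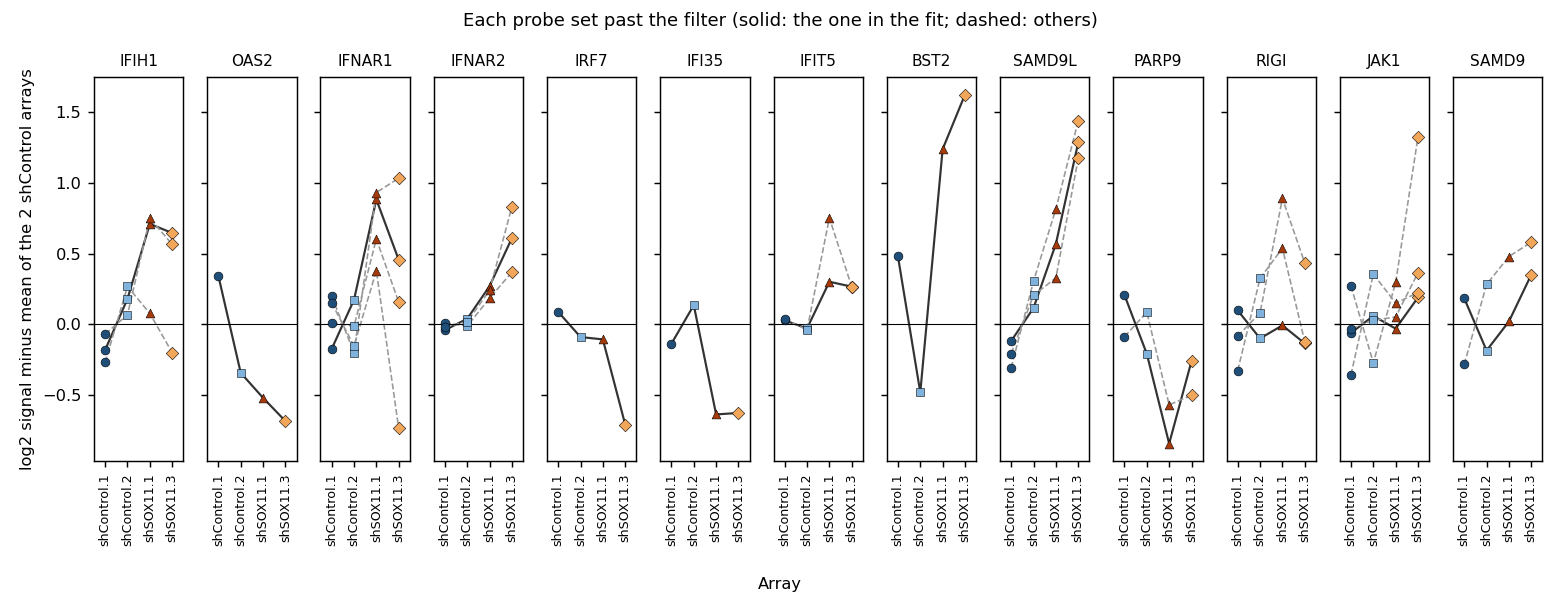
All probe sets past the filter of 13 members: the 10 tested members whose groups did not overlap, with RIGI, JAK1 and SAMD9. Values are log2 signal on each array minus the mean of the control arrays, with lines joining the values of 1 probe set. BST2, IRF7, IFI35 and OAS2 have 1 such probe set each. In IFNAR2 and SAMD9L every probe set has both shSOX11 points above both control points, while probe sets of RIGI, JAK1 and IFIH1 differ in direction or size.

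The induced regulators had the widest spread between control hairpins. PARP9 and DTX3L encode partners in one ubiquitin ligase complex and share a promoter region. PARP9 gave 95.8 and 71.8 with control hairpins, and 46.2 and 69.3 with shSOX11 hairpins, lower on both though shSOX11.3 lay close to shControl.2 (difference -0.55, limma SE 0.32, adjusted p = 0.649). Its second probe set read 76.0 and 85.7 against 54.4 and 57.0, a difference of -0.54 with a clearer gap. DTX3L gave 268 and 312 on the control arrays, 271 with shSOX11.1 and 202 with shSOX11.3, so the groups overlapped (difference -0.31, adjusted p = 0.674). PARP14, another interferon-induced ADP-ribosyltransferase, gave 36.3 and 72.4 against 50.3 and 32.4. USP18, which removes ISG15 and damps receptor signalling, gave 7.90 on shControl.1 against 54.4 on shControl.2, and 32.3 and 47.8 with shSOX11 hairpins. The USP18 difference of 0.92 log2 (SE 0.85, adjusted p = 0.753) rests on that 1 control array, and without shControl.1 it was -0.47.

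The 12 members that did not pass the filter include genes that interferon is known to induce strongly. Their signals ran from 0.816 to 38.9, and 10 of them were below 24.8 on every array. IFIT1, which binds foreign RNA, read 3.33 and 2.05 with control hairpins and 14.6 and 2.07 with shSOX11 hairpins. RSAD2, which encodes the antiviral enzyme viperin, read 22.0 and 0.816 against 8.26 and 17.6. IFI44L read 12.7 and 4.74 against 1.71 and 1.24, and IFI44 read 2.99 and 7.87 against 4.25 and 5.50. Signals this dim have no order on these arrays, so no difference between groups could be measured for these genes. IFI27 read 14.0 and 2.66 against 5.66 and 4.25, and IFIT2, HERC5 and HERC6 ranged from 2.07 to 20.2 over all arrays. Besides OAS3 on shControl.1, LGALS3BP on shSOX11.1, at 37.9, was the one value among these genes above threshold.

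The scrambled hairpins were compared with 1 array each, so no test is possible. Of the 35 members, 7 (20.0%) were at least 1.5-fold apart between shControl.2 and shControl.1, against 13.3% of all genes. IRF9, PARP14 and USP18 were higher on shControl.2 (8.57%, against 6.22%), and BST2, OAS2, OASL and XAF1 were lower there (11.4%, against 7.09%). The directions were mixed: 20 members (57.1%, against 47.0% of genes) were higher on shControl.2, with a median of 0.07 log2 against -0.02 for all genes. The median size of the difference was 0.27 log2 for members and 0.18 for all genes. It was wider among dim members: those above threshold on all 4 arrays had a median size of 0.21 and the 5 above it on 2 or 3 arrays had 0.80.

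USP18 showed the widest gap between the control arrays, 6.89-fold, with its lower value far under threshold, followed by OASL at 2.47-fold. In their brightest probe sets, OAS2 and OASL were lower on shControl.2 while OAS1 was higher there, and ISG15, IFIT3 and EIF2AK2 differed by at most 0.12 log2. The dimmer OAS1 probe set, at 27.6 and 17.8, was lower on shControl.2 as OAS2 and OASL were. Of the 6 members higher on both shSOX11 arrays, BST2 alone was 1.5-fold apart between the controls.

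The hairpins against SOX11 differed in more members. Between shSOX11.3 and shSOX11.1, again with 1 array each and no test, 9 members (25.7%) were at least 1.5-fold apart, against 22.2% of all genes. IFI6 and SAMD9L were higher on shSOX11.3 (5.71%, against 9.21% of genes). IFITM1, IFITM2, IRF3, IRF7, MX2, PARP14 and XAF1 were lower there, a share of 20.0% against 13.0% of genes. Without a limit of size, 48.6% of members and 41.2% of genes were higher on shSOX11.3, with a median difference of -0.03 log2 for members and -0.09 for all genes. PARP14 and XAF1 were the members past 1.5-fold in both pairs of hairpins, and in both the spread within each group was wider than the difference between groups.

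**Figure D4:**
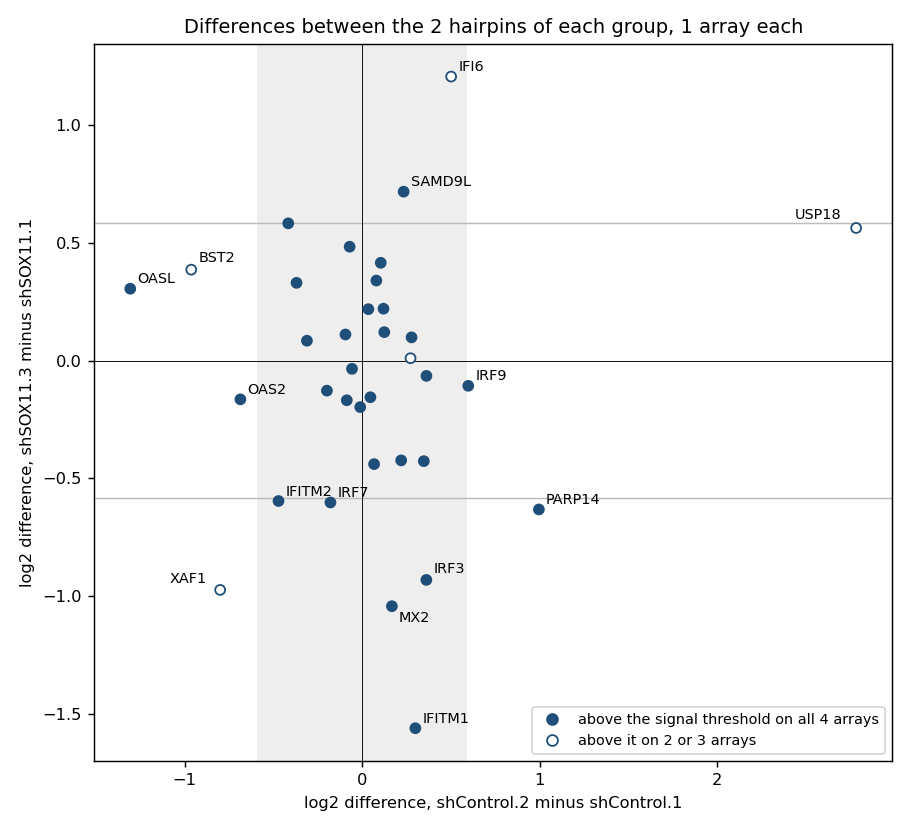
Difference between the control hairpins (shControl.2 minus shControl.1, horizontal) against the difference between the hairpins against SOX11 (shSOX11.3 minus shSOX11.1, vertical), in log2, for the 35 tested members, with the region under 1.5-fold shaded. USP18 lies far to the right at 2.78, OASL to the left at -1.31, IFITM1 lowest at -1.56 and IFI6 highest at 1.21.

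Other genes of the pathway were read from 3 further lists. Interferon genes themselves were dim: of 21 listed, 18 had a probe set and 2 were tested, and the highest signal of any was 58.0. IFNB1, a main target of the sensors, named here outside the rule on the smallest p, ranged from 1.44 to 3.06. IFNA17 read 58.0 and 5.99 with control hairpins and 45.4 and 52.6 with shSOX11 hairpins, and IFNA10 read 26.1 and 30.2 against 8.04 and 15.2, at least 1.13-fold lower as a bound. Interferon alpha genes are near-identical copies, so these readings are uncertain, and neither had an unadjusted p below 0.05.

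Of 25 further receptor and signalling genes, 22 were tested. In the mean 11 were higher (50.0%, against 41.9% of all genes) and 11 lower (50.0%, against 58.1%). Their median was -0.00 log2, against -0.06 for all genes. Both shSOX11 arrays lay above both controls in 8 (36.4%, against 16.2%) and below in 5 (22.7%, against 24.9%). With arrays centred on their medians, 15 were higher (68.2%, against 52.7%) and 7 lower (31.8%, against 47.3%). No test of these shares was made. No gene passed limma's adjusted p, and 2 had an unadjusted p below 0.05, both higher (9.09%, against 8.38% of all genes in either direction and 3.4% higher). JAK2, the kinase of the interferon gamma receptor, gave 87.9 and 81.6 with control hairpins and 129 and 209.6 with shSOX11 hairpins. The groups did not overlap, the difference was 0.96 log2 (limma SE 0.27, adjusted p = 0.415), and all 3 of its probe sets had both shSOX11 arrays above both controls. IFNGR1, the ligand-binding chain of that receptor, gave 209 and 195 against 244 and 359, a difference of 0.55 (limma SE 0.22, adjusted p = 0.554). A dimmer IFNGR1 probe set read 57.1 and 45.8 against 52.4 and 90.5, with overlapping groups, and the dimmest was below threshold on every array. Next by p came genes in the opposite direction. IFNLR1, the chain specific to interferon lambda, gave 652 and 704 against 452 and 582, and STING1, the adaptor of the DNA-sensing pathway, gave 140.1 and 118 against 91.4 and 93.0.

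Named after their values were seen, IFNGR2 read 846 and 962 with control hairpins and 1227 and 1025 with shSOX11 hairpins, and IL10RB, the second chain of the lambda receptor, read 198 and 180.5 against 199.7 and 281. In IL10RB the nearest arrays were 198 and 199.7, so its groups barely separate. The 6 interferon receptor chains are a set completed after values were seen. In their brightest probe sets, 5 had both shSOX11 arrays above both controls, as did 16.2% of all genes. IFNLR1 had both below, as did 24.9%. No chain passed the adjusted test in the comparison of all 4 arrays.

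**Figure D5:**
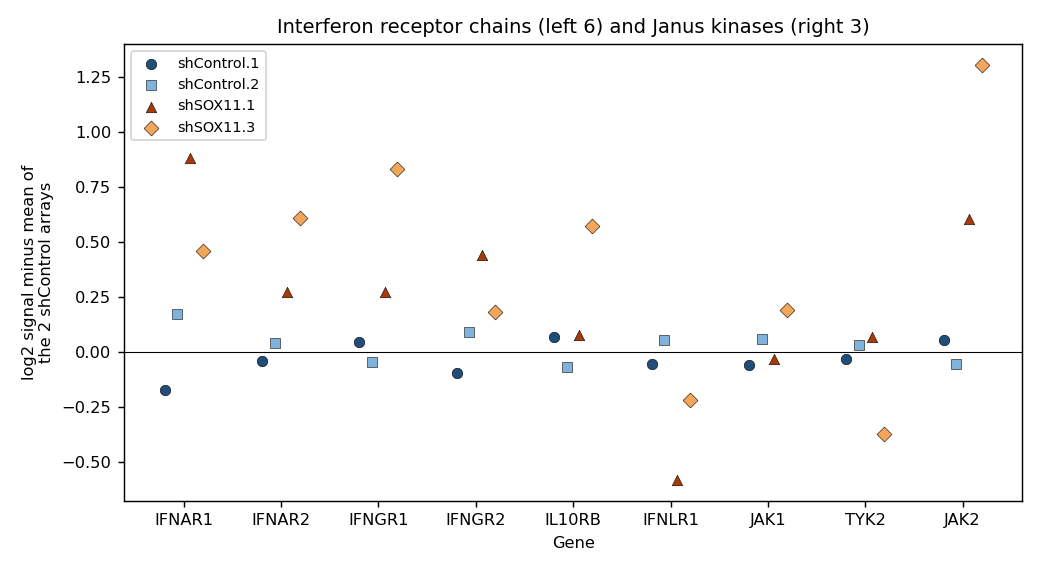
Log2 signal of the brightest probe set minus the mean of the control arrays, for the 6 interferon receptor chains and the kinases JAK1, TYK2 and JAK2 on each array. Points of the shSOX11 arrays lie above those of the controls in IFNAR1, IFNAR2, IFNGR1, IFNGR2, IL10RB and JAK2, and below them in IFNLR1.

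Of 47 further induced genes listed, 28 were tested, with 5 higher and 23 lower in the mean (82.1% lower, against 58.1% of all genes) and a median of -0.15 log2, against -0.06 for all genes. Both shSOX11 arrays lay below both controls in 13 (46.4%, against 24.9%) and above in 4 (14.3%, against 16.2%). With arrays centred on their medians, 21 were lower in the mean (75.0%, against 47.3%). In that setting 9 lay below both controls (32.1%) and 5 above (17.9%). The shares of all genes for these were not counted, and the 24.9% and 16.2% hold only without centring. None passed limma's adjusted p, 0 had an unadjusted p below 0.05 in the higher direction and 3 did in the lower (10.7%, against 4.98%), 1 of them LY6E, which passed the filter through the controls alone and so had to differ. With that centring, 1 was lower and 1 higher at that p (3.57% each), beside 1059 of all genes in either direction. SP110, a nuclear body protein, gave 448 and 467 with control hairpins and 316 and 354 with shSOX11 hairpins (difference -0.45, limma adjusted p = 0.519). That probe set is of the kind that can bind related transcripts. The other SP110 probe sets differed by -0.12, -0.15, -0.41 and 0.04 log2, and the groups overlapped in the first and last of these. LY6E, a surface protein, gave 64.6 and 39.1 against 21.4 and 21.3, below threshold there and so at least 2.02-fold lower as a bound. HELZ2, a helicase, gave 69.9 and 55.2 against 38.2 and 32.3. SP100, the relative of SP110 that came next by p, differed in the other direction, with 295 and 417 against 423 and 608. The other SP100 probe sets differed by -0.06 to 0.76 log2, and the groups overlapped in all of them except the one at 0.76. IFITM3, chosen here after its values were seen, resembled IFITM1 in its extremes, 154 with shSOX11.1 and 14.9 with shSOX11.3, beside control arrays of 67.2 and 119.6.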

How the data were processed

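RNA from 4 Z138 samples went onto 1-colour arrays, 1 for each hairpin, with groups taken from the sample labels. The authors deposited a linear intensity for every probe set; the submitters' processing notes name MAS5 and Affymetrix Expression Console. Their versions and scaling target are not given in the sources here. The trimmed mean was 150 on every array, and median signals ran from 23.9 to 25.7. MAS5 subtracts mismatch probes, which makes dim signals noisy.

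Intensities were converted to log2 as deposited, with no pseudocount and no further normalization. Probe sets with a signal over 24.8 on 2 or more arrays were kept, and a gene was its brightest kept probe set among those with 1 symbol. Groups were compared with limma 3.58.1 in R 4.3.3 (lmFit, eBayes with trend, two-sided, Benjamini-Hochberg over all 11938 genes, 2 residual degrees of freedom), tested on simulated data with 200 changed genes. A gene below threshold on both arrays of a group was given as a bound, the other group's log2 mean over the threshold. The number of arrays limits the precision.

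Members could each be named; of the other pathway lists, the rule took genes by smallest p. Members and lists were chosen with earlier results of these data known. Promoters are RefSeq sequences matched by symbol. Alternatives were quantile normalization, median centring, a pseudocount, other filters, other probe set choices, other limma settings and leaving out each array. The signal of STAT2 was not analysed here, and its promoter entry was.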

Additional observations from a re-analysis of the deposited data

How the results depend on the processing

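Of the 35 tested members, 28 kept the sign of their difference under every alternative other than leaving out an array, and 14 kept it without each array as well. The members' median, 0.04 log2, was 0.12 with median centring, which moved the median of all genes from -0.06 to 0.02 and the members with a higher mean from 20 to 25 (all genes 52.7%). Centring turned RIGI to 0.012, EIF2AK2 to 0.036, ADAR to 0.023, ISG15 to 0.016 and IFITM2 to 0.022. When probe sets of a gene were averaged, RIGI was 0.27, PARP14 0.33 and IRF1 -0.0039. In that setting 3 members, beside 994 of all genes, had an unadjusted p below 0.05 in limma. Without cross-hybridising probe sets RIGI was 0.66. Members at least 1.5-fold apart on all 4 pairs, 1 as reported, numbered 0 with a pseudocount of 32, 2 with no filter (47 members), and 0 at 2-fold. Members that far apart between the control hairpins, 7 as reported, numbered 3 with that pseudocount, 15 with no filter, 3 with a filter at the 65th percentile (28 members), and 2 at 2-fold. Shares of all genes at 1.5-fold or 2-fold were not counted under these alternatives. The cause of these shifts was not tested, beyond the number of genes tested.

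Fits without 1 array give the lone array of its group the spread of the other group. The share of all genes 1.5-fold apart was not counted in these fits. Over the 4 such fits, genes past limma's adjusted p ran from 0 to 953 (953 without shSOX11.1, 211 without shSOX11.3, 0 without either control array), members past it from 0 to 3 (IFNAR2, IFITM1 and SAMD9L, all without shSOX11.1), members at an unadjusted p below 0.05 from 2 to 10, the members' median from -0.024 to 0.11, members 1.5-fold apart on all pairs from 3 to 6, and the SOX11 difference from -1.24 to -1.23. Differences of 20 members changed sign, running for RIGI from -0.17 to 0.029, EIF2AK2 from -0.11 to 0.015, ADAR from -0.16 to 0.039, OAS1 from -0.026 to 0.25, OASL from -0.49 to 0.82, JAK1 from -0.030 to 0.19, TYK2 from -0.37 to 0.069, IRF3 from -0.62 to 0.31, ISG15 from -0.15 to 0.017, ISG20 from -0.37 to 0.11. They ran for MX1 from -0.046 to 0.27, MX2 from -0.48 to 0.56, IFI6 from -0.44 to 0.77, IFIT3 from -0.072 to 0.15, IFITM1 from -1.12 to 0.44, IFITM2 from -0.36 to 0.24, XAF1 from -0.13 to 0.85, TRIM22 from -0.19 to 0.23, USP18 from -0.47 to 2.32, PARP14 from -0.84 to 0.15. No paired analysis was possible because the numbers name hairpin constructs and the groups share only number 1. Signals near the threshold limit what dim members can show.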

Other observations

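Genes of antigen processing that interferon is known to induce were chosen here after their values were seen. The immunoproteasome subunit genes PSMB8 and PSMB9 were lower with both hairpins against SOX11: PSMB8 gave 1673 and 1593 with control hairpins against 1447 and 1228, and PSMB9 gave 1982 and 1793 against 1711 and 1213. The differences were -0.29 and -0.39 log2 and neither passed the test (limma adjusted p = 0.615 and 0.598). TAP1, a chain of the peptide transporter, read 791 and 931 against 971 and 965 (difference 0.17, limma adjusted p = 0.745). Its partner TAP2 read 568 and 525 against 521 and 524 (difference -0.06, limma adjusted p = 0.915), at the median of all genes. Other TAP2 probe sets past the filter differed by -0.71 and 1.00 log2. Of all genes, 24.9% had both shSOX11 arrays below both controls and 16.2% had both above. UBE2L6, the conjugating enzyme for ISG15, gave 349 and 345 against 271 and 268, a narrow gap within each group and a difference of -0.36 log2 (limma adjusted p = 0.591). ISG15 itself overlapped between the groups.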
